A study of Rattus norvegicus with 6 samples.

Results

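The genes of catecholamine synthesis and of the chromaffin granule were examined in 6 RNA-seq libraries labelled as PC12, a rat line that was derived from a tumor of the adrenal medulla. The 10 members, Th, Ddc, Dbh, Pnmt, Slc18a1, Slc18a2, Slc6a2, Chga, Chgb and Scg2, were chosen for their known function and matched by symbol to 10 of the 20609 rows of the count table. Of the 6 libraries, 3 were labelled as controls (Ctrl), and in the other 3 the cells overexpressed PCBP1 (PCBP1-OE). The study's methods describe lipofection of an EGFP-tagged PCBP-1 plasmid and name no control plasmid. Its abstract and introduction call the overexpression constitutive and stable. Each library holds bulk RNA, and the share of cells that took up a plasmid is not given in the sources used here.

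Chromaffin cells of the adrenal medulla build catecholamines from tyrosine in a chain of enzymes and store them in dense-core granules together with proteins of the granin family. Vesicular monoamine transporters load the granules, and a transporter of the plasma membrane takes released norepinephrine back up. PC12 cells are known for making and storing dopamine and norepinephrine, so these genes serve as a check of the label as well as a readout of PCBP-1 overexpression.

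Only 3 of the 10 members, Th, Slc18a1 and Scg2, had enough counts for a test, and the other 7 were at or near 0 in control and PCBP1-OE libraries alike. The label does not call for Pnmt, whose product makes epinephrine, and Slc18a2 is the neuronal form of the vesicular transporter. The rest of these 7 genes go against the label. PC12 is used here as the label of the libraries and not as a checked identity. The libraries held 19730209 to 22315623 counts on genes, so that 1 count stands for about 0.0446 to 0.0510 CPM (counts scaled to library size, with TMM factors for library composition). Of all rows in the table, 12624 (61.3%) passed the filter on low counts, and of the protein-coding rows 68.4% did, against 30% of the members. Counts are not divided by transcript length, so a sum over a list, or the part of it held by 1 gene, is given as counts only, and no order of levels between genes or lists is read from it. In bulk libraries fewer cells of a type and less RNA per cell cannot be told apart. The gene targeted by the plasmid is not analysed here, and the label of overexpression therefore has no check here.

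**Figure D1:**
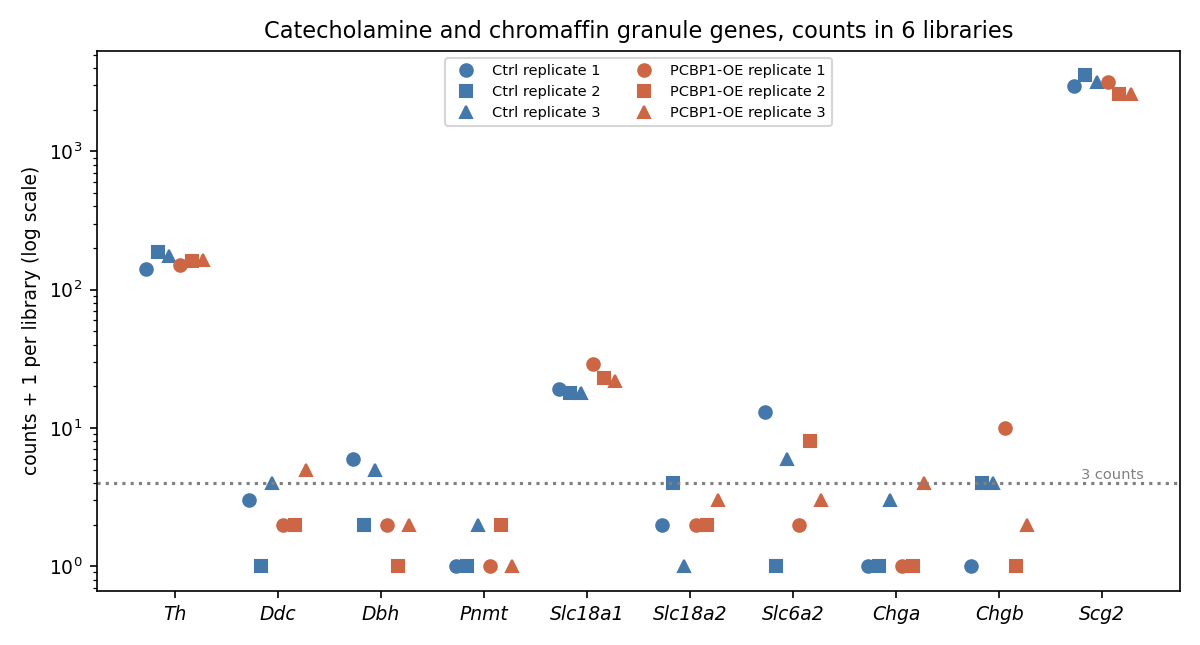
Counts plus 1 of each member (log axis) in the 3 control (blue) and 3 PCBP1-OE (orange) libraries, with marker shape for the replicate and a dotted line at 3 counts. Scg2 and Th stood at 2607 to 3553 and 141 to 185 counts, Slc18a1 at 17 to 28, and the other 7 members at no more than 12.

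Promoter windows of 300 bases, from 250 before to 50 after the annotated start, were found for 6 of the 10 members in RefSeq (assembly GRCr8), and these were searched for the cyclic AMP response element (CRE). This motif, TGACGTCA, reads the same on both strands and is a known binding site of CREB family factors. Pnmt, Slc18a1, Slc6a2 and Chga had no window. The motif was present in 3 of the 6 members with a window, Th, Scg2 and Slc18a2. Of all 33469 promoter windows, 1.83% held it. This is a share of windows and not of genes, since a gene such as Ddc can have several. The windows of these 3 members are shown because they share the motif while their counts differ widely, with the CRE in capitals. They lie at chr1:207508169-207508468 (minus strand), chr9:88256817-88257116 (minus strand) and chr1:268399771-268400070 (plus strand), in that order, and are written 5′ to 3′ on the strand of the gene.
Th: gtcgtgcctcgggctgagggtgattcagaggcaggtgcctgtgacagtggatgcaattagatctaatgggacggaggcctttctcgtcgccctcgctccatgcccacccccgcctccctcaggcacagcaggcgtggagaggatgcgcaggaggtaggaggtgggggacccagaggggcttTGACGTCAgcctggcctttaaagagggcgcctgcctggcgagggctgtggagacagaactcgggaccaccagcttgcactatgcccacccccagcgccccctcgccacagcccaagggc
Scg2: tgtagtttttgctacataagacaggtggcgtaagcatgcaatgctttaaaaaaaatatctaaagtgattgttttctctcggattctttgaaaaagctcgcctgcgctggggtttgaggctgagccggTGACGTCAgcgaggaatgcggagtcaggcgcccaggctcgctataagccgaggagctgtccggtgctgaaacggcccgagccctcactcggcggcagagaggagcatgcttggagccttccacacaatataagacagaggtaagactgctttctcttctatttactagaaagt
Slc18a2: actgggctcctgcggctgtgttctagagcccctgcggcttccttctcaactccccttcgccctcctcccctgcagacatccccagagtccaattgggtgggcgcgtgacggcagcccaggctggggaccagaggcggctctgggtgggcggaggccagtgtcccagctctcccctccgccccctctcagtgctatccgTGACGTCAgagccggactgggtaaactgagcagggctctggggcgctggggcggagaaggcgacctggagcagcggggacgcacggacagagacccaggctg
The CRE began 69 bases before the start in Th, 123 in Scg2 and 52 in Slc18a2. The AP-1 motif TGANTCA, searched on both strands, was found in Th, 230 bases before the start, and in 1 window of Ddc, and 7.33% of all windows held it. Dbh and Chgb held neither motif. The half-site TGACG, which is part of the CRE and occurs in 21.2% of all windows on either strand, was present in Th, Scg2, Slc18a2 and Dbh. A match of letters is a description of the window and says nothing of binding.

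Among the 4 enzymes, Th was counted in every library and the other 3 were not counted above 5 in any. Th (ENSRNOG00000020410, chromosome 1), which makes L-DOPA from tyrosine in the rate-limiting step, had 141, 185 and 175 counts in Ctrl and 151, 161 and 164 in PCBP1-OE. The lowest and the highest count were both in controls, and the groups overlapped. In CPM, Th was at 7.95 ± 0.846 in Ctrl and 7.73 ± 0.788 in PCBP1-OE (SD, n = 3 each).

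Ddc (ENSRNOG00000004327, chromosome 14), the decarboxylase that turns L-DOPA into dopamine, had 2, 0 and 3 counts in Ctrl and 1, 1 and 4 in PCBP1-OE. Dbh (ENSRNOG00000006641, chromosome 3), the granule enzyme that makes norepinephrine from dopamine, had 5, 1 and 4 counts in Ctrl and 1, 0 and 1 in PCBP1-OE. Pnmt (ENSRNOG00000046057, chromosome 10), which methylates norepinephrine to epinephrine, had 1 count in Ctrl replicate 3, 1 in PCBP1-OE replicate 2 and 0 in the other libraries. The steps after L-DOPA were therefore represented by 11, 12 and 2 counts over all 6 libraries. These sums stand for 0.0882 CPM for Ddc (95% exact Poisson interval 0.0440 to 0.158), 0.0962 CPM for Dbh (0.0497 to 0.168) and 0.0160 CPM for Pnmt (0.00194 to 0.0579), intervals that cover counting error only. For Dbh, 10 counts in controls stood against 2 in PCBP1-OE, a ratio of 0.210 with a counting interval of 0.0223 to 0.984, while its CPM overlapped between groups (two-sided exact permutation test over libraries, p = 0.2).

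Of the transporters, only Slc18a1 reached more than 12 counts. Slc18a1 (ENSRNOG00000011992, chromosome 16), the vesicular monoamine transporter VMAT1 of endocrine cells, had 18, 17 and 17 counts in Ctrl and 28, 22 and 21 in PCBP1-OE. The lowest PCBP1-OE library exceeded the highest control, as counts and in CPM, at 0.830 ± 0.0811 in Ctrl and 1.14 ± 0.110 in PCBP1-OE (SD, n = 3 each). Slc18a2 (ENSRNOG00000008890, chromosome 1), the neuronal form VMAT2, had 1, 3 and 0 counts in Ctrl and 1, 1 and 2 in PCBP1-OE. Slc6a2 (ENSRNOG00000016311, chromosome 19), the norepinephrine transporter of the plasma membrane, had 12, 0 and 5 counts in Ctrl and 1, 7 and 2 in PCBP1-OE. Its highest and its lowest value were both in controls, and the sums of 17 and 10 gave a ratio of 0.616 with a counting interval of 0.252 to 1.43.

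Of the 3 granins, Scg2 was well counted and Chga and Chgb were not. Scg2 (ENSRNOG00000015055, chromosome 9), the precursor of secretoneurin, had 2984, 3553 and 3170 counts in Ctrl and 3173, 2607 and 2617 in PCBP1-OE. In CPM the controls were at 152, 170 and 141 and PCBP1-OE at 144, 129 and 134, so Ctrl replicate 3 lay below PCBP1-OE replicate 1 and the groups overlapped. Chga (ENSRNOG00000052549, chromosome 6), chromogranin A and the classical marker of neuroendocrine granules, had 2 counts in Ctrl replicate 3, 3 in PCBP1-OE replicate 3 and 0 in the other 4 libraries. Chgb (ENSRNOG00000021269, chromosome 3), chromogranin B, had 0, 3 and 3 counts in Ctrl and 9, 0 and 1 in PCBP1-OE, with its highest value and a 0 in the same group. Over all libraries Chga stood at 0.0401 CPM (95% exact Poisson interval 0.0130 to 0.0935) and Chgb at 0.128 CPM (0.0733 to 0.208).

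Taking the 7 members without a test together, 35 of their 42 values were at 3 counts or less and 14 of the 42 were 0. Pnmt, Slc18a2 and Chga had no library above 3 counts. Summed over these 7 genes, the libraries held 20, 7 and 18 counts in Ctrl and 13, 10 and 13 in PCBP1-OE, and the groups overlapped. The CPM of the 10 members summed to 151 to 180.1 CPM in Ctrl and 139 to 153 CPM in PCBP1-OE, and to 8.71 to 10.1 CPM over all libraries without Scg2.

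The label was further compared with markers of other cell types. Transcription factors of the sympathoadrenal lineage gave 4 tested genes of 9 listed, among them Tfap2b at 14.3 ± 0.632 CPM in controls (SD, n = 3). The list summed to 18.3 to 19.3 CPM in Ctrl and 19.7 to 22.1 CPM in PCBP1-OE. Among these factors Phox2a, which is required for the noradrenergic fate, had 1 to 7 counts per library. Of the 7 receptors listed, Gfra1 alone was tested, at 110 ± 4.46 CPM in controls (SD, n = 3). No rows were matched to Hand2, Insm1, Chrna3, Vgf and Npy, which are not analysed here.

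Markers of glia and Schwann cells were counted in the same libraries, with 8 of 13 listed genes tested. Sox10, a transcription factor of neural crest glia and oligodendrocytes, was at 399 ± 9.44 CPM in Ctrl and 367 ± 6.60 CPM in PCBP1-OE (SD, n = 3 each). This list summed to 782 to 834 CPM in Ctrl and 725 to 754 CPM in PCBP1-OE. Of its 8 tested genes 1 fell, the myelin enzyme gene Cnp (edgeR log2 fold change -0.26, SE 0.055, adjusted p = 0.0179). Of all genes tested, 5.00% were called lower at an FDR of 0.05. Sox10 did not pass (adjusted p = 0.079, same edgeR fit). Not all of the list was well counted, since Fabp7 had 3 counts in Ctrl replicate 3 and 0 elsewhere. For fibroblast markers, 3 of 7 tested, the sum was 225 to 230 CPM in Ctrl and 200 to 212 CPM in PCBP1-OE. Most of it was Pdgfra (223 ± 2.65 CPM in controls, SD, n = 3), and the sum without Pdgfra was 4.54 to 5.76 CPM over all libraries. Neuronal markers, 4 of 11 tested, summed to 342 to 380 CPM in Ctrl and 311 to 347 CPM in PCBP1-OE. They include Uchl1, which alone of the 4 fell (edgeR log2 fold change -0.20, SE 0.057, adjusted p = 0.0465), beside the same 5.00% of all genes tested. The groups of Uchl1 overlapped, and the sum without it was 34.6 to 42.6 CPM. Epithelial markers, with 1 of 4 tested, summed to 52.4 to 58.4 CPM in Ctrl and 48.3 to 53.5 CPM in PCBP1-OE. Nearly all of this was Epcam, and the sum without Epcam was 0.148 to 0.561 CPM over all libraries. The sums for adrenal cortex (Cyp11b2 among them), endothelial (with Tek) and leukocyte (with Cd68) markers lay between 4.74 and 7.98 CPM in all libraries. The part of other cell types in the member values was not tested.

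**Figure D2:**
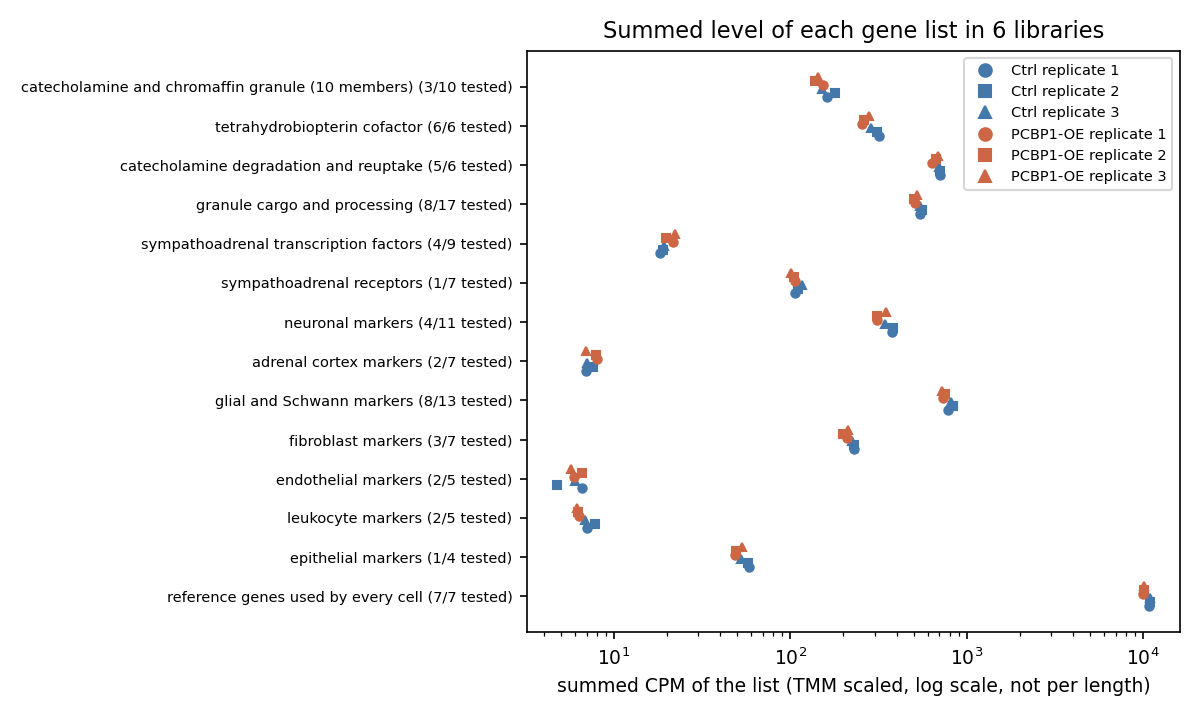
Summed CPM of each gene list (log axis, not divided by transcript length) in the 3 control (blue) and 3 PCBP1-OE (orange) libraries, with the number of genes tested of those listed. Within a list the 6 libraries can be compared, such as 139 to 180.1 CPM for the 10 members, while distances between lists also carry transcript length and list size.

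For the question of whether PCBP-1 overexpression changed these genes, the 3 controls were compared with the 3 PCBP1-OE libraries by edgeR's quasi-likelihood test across all 12624 genes tested. None of the 3 members tested passed an FDR of 0.05, while 9.45% of all genes tested did (1193 genes). At an unadjusted p under 0.05 there was 1 member, Scg2, a threshold that 28.4% of all genes tested passed. DESeq2 called 0 members at an FDR of 0.05 and 13.3% of the genes it gave an adjusted p, which leave out Slc18a1. At an unadjusted p under 0.05 DESeq2 had 1 member and 23.6% of genes. The edgeR log2 fold change (PCBP1-OE against control) of Scg2 was -0.19 (SE, the standard error, 0.065, adjusted p = 0.0787), a fold of 0.878 with an unadjusted 95% interval of 0.797 to 0.967. For Th it was -0.043 (SE 0.133, adjusted p = 0.863), and the interval of the fold, 0.795 to 1.19, leaves out a change of 2-fold in either direction. For Slc18a1 it was 0.47 (SE 0.280, adjusted p = 0.296), with an interval of 0.910 to 2.10 in fold. Slc18a1 was the only member of these 3 whose groups did not overlap (exact permutation test, p = 0.1, the smallest possible for 3 against 3), which 30.6% of all genes tested also showed.

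**Figure D3:**
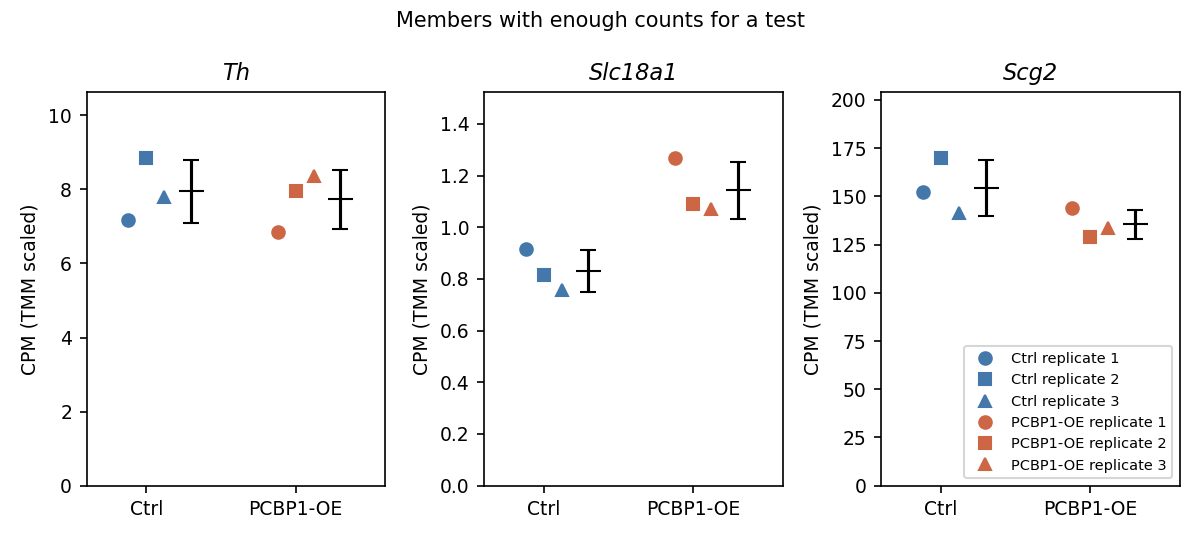
TMM-scaled CPM of Th, Slc18a1 and Scg2 in each library (linear axes from 0, marker shape for the replicate), with the mean and SD of the 3 libraries of a group in black. The groups overlapped for Th and Scg2, while Slc18a1 was at 0.757 to 0.917 CPM in Ctrl and 1.07 to 1.27 CPM in PCBP1-OE.

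Single libraries and the filter decided the call for Scg2. Without Ctrl replicate 3 its log2 fold change was -0.25 (SE 0.058, adjusted p = 0.00645) in a fit that called 22.3% of genes, and without Ctrl replicate 2 it was -0.11 (adjusted p = 0.401). With no filter on low counts it passed at an adjusted p of 0.0108, where 10.1% of genes did, and over all 12 alternatives its adjusted p ranged from 0.00645 to 0.401. Gapdh, the reference gene of the study's RT-qPCR, was itself lower in PCBP1-OE, at 3712 ± 33.9 CPM in Ctrl and 3332 ± 74.8 CPM in PCBP1-OE (SD, n = 3 each), which gave a log2 fold change of -0.16 (SE 0.041, edgeR adjusted p = 0.0356). Per 1000 counts of Gapdh, Scg2 stood at 41.0, 45.4 and 38.4 in Ctrl and 44.0, 39.0 and 39.1 in PCBP1-OE, with means of 41.6 ± 3.54 and 40.7 ± 2.88 (SD, n = 3 each) and p = 0.7 in an exact permutation test. On this scale, which was added after the values were seen, Th was at 2.14 ± 0.214 and 2.32 ± 0.194 (exact permutation test, p = 0.3). Dividing by Gapdh moves every gene up by the amount that Gapdh was lower, which exceeds the size of the Th difference, so the change of sign on this scale says nothing of Th itself.

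The surrounding pathway was described by 45 listed genes, of which 39 had a row and 24 (61.5%) were tested. Of these, 2 passed an FDR of 0.05, which is 8.33%, beside 9.45% of all genes tested. Both were lower in PCBP1-OE, and 5.00% of all genes tested were called lower. The median log2 fold change of the 24 was -0.052, beside 0.0029 over all genes tested. The calls of all genes were 562 higher and 631 lower, and 655 and 427 with upper-quartile scaling. DESeq2 also called 2 pathway genes. At an unadjusted p under 0.05 there were 7 pathway genes in the edgeR fit and 4 in DESeq2, beside the 28.4% and 23.6% of all genes given above.

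Genes for tetrahydrobiopterin, the cofactor of Th, were all tested, and 1 of 6 fell, beside 5.00% of all genes tested. Gchfr, whose protein mediates feedback inhibition of the first enzyme of cofactor synthesis, had 2700, 2651 and 2427 counts in Ctrl and 2092, 1955 and 2066 in PCBP1-OE. In CPM it was at 124 ± 14.9 and 99.0 ± 5.61 (SD, n = 3 each), which gave a log2 fold change of -0.33 (SE 0.074, edgeR adjusted p = 0.0212). Gch1, that first enzyme, was at 29.0 ± 1.43 and 27.5 ± 0.639 CPM (SD, n = 3 each; adjusted p = 0.523, edgeR). The other 4, Pts, Spr, Qdpr and Pcbd1, had log2 fold changes of -0.19 to -0.051 and did not pass.

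In the list of granule cargo and processing, 15 of 17 genes had a row, 8 were tested and 1 fell, beside 5.00% of all genes tested. Penk, the precursor of enkephalin peptides that chromaffin granules release, had 4505, 4741 and 4530 counts in Ctrl and 4036, 3572 and 3689 in PCBP1-OE. The change on the log2 scale was -0.26 (SE 0.054, edgeR adjusted p = 0.0145), from 219 ± 15.3 to 183 ± 5.71 CPM (SD, n = 3 each). Cpe and Pam, which trim and amidate peptide precursors, were at 132 ± 7.03 and 111 ± 4.16 CPM in controls (SD, n = 3 each) and did not pass. The convertase gene Pcsk1 had no more than 1 count in any library, and Pcsk1n, Cartpt, Gal and Cadps were also at 3 counts or less in all 6. For Scg5, a chaperone of the convertase PC2, counts were 16, 16 and 15 in Ctrl and 30, 22 and 22 in PCBP1-OE. The edgeR estimate for Scg5 was a log2 fold change of 0.67 (SE 0.286, adjusted p = 0.143), which did not pass. In CPM the groups of Scg5 did not overlap. This held for 4 of the 8 tested genes of the list, Penk and Pam among them, beside 30.6% of all genes tested.

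Gchfr and Penk did not pass when 1 of 4 libraries was left out. Without Ctrl replicates 1 and 2 and PCBP1-OE replicates 1 and 2, in that order, the adjusted p was 0.110, 0.136, 0.118 and 0.0882 for Gchfr and 0.0867, 0.121, 0.0769 and 0.0754 for Penk. Over all 12 alternatives it ranged from 1.5e-06 to 0.136 for Gchfr and from 4.3e-05 to 0.121 for Penk, and both log2 fold changes stayed below 0.

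Of the genes that break down or take up catecholamines, 5 of 6 were tested and none passed in the edgeR fit or in DESeq2, while 1 had an unadjusted edgeR p under 0.05. Maoa was at 56.8 ± 1.52 CPM in Ctrl and 57.1 ± 1.25 CPM in PCBP1-OE (SD, n = 3 each). Akr1b1, an aldose reductase that also acts on catecholamine aldehydes, was at 348 ± 6.79 and 329 ± 21.0 CPM (SD, n = 3 each). The dopamine transporter gene Slc6a3 had 1 or 2 counts in each library. No gene of the sympathoadrenal transcription factors or receptors passed with either tool, and 1 of them, Gfra1, had an unadjusted edgeR p under 0.05.

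**Figure D4:**
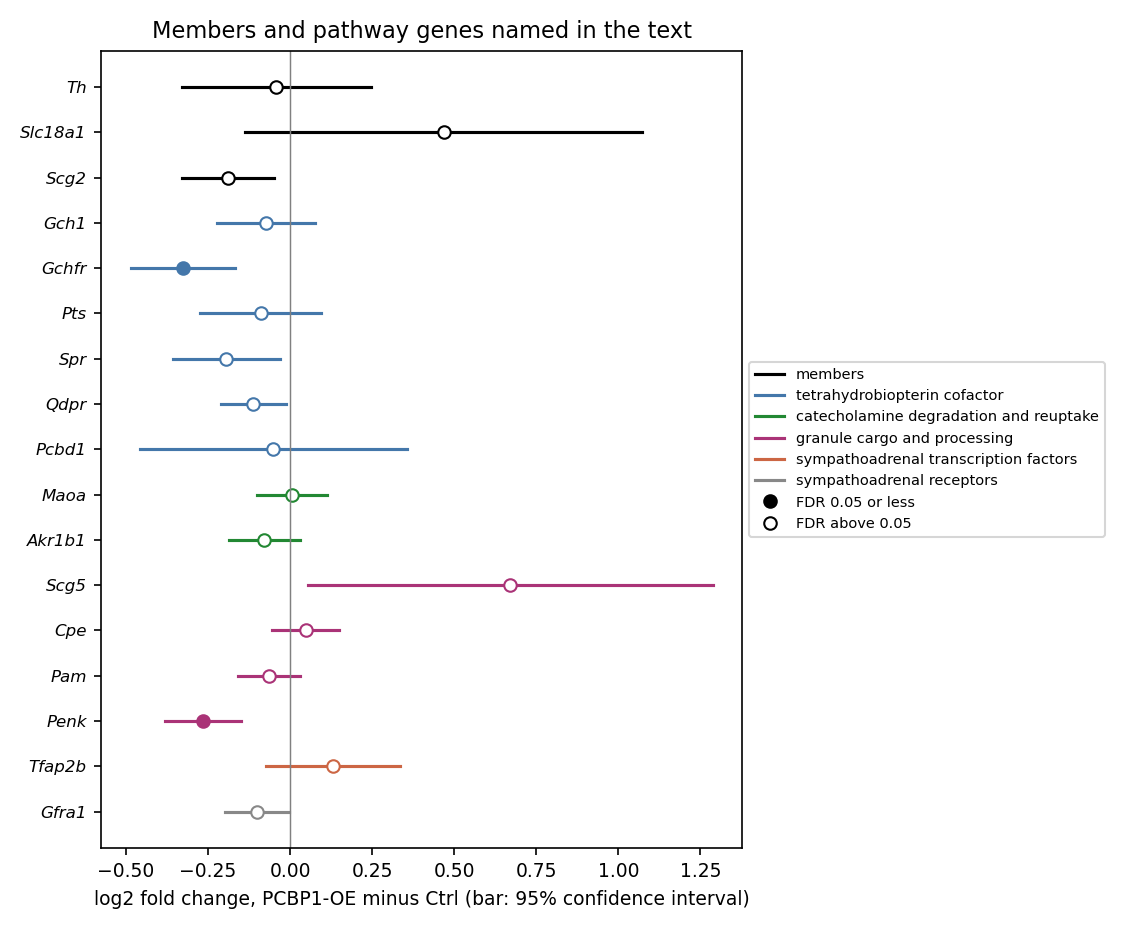
The edgeR log2 fold change (PCBP1-OE minus control, horizontal axis) of the 3 members and of the tested pathway genes named in the text, with unadjusted 95% confidence intervals, coloured by list and filled where the FDR was 0.05 or less. Gchfr (-0.33) and Penk (-0.26) are the filled points, and Scg2 lies at -0.19.

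The genes whose levels most resembled those of Scg2 over the 6 libraries were sought on log2(CPM + 1). The highest Pearson correlations were with Ugt1a8 (0.984), Ebp (0.981) and Acads (0.980), which share all 6 libraries and their scaling with Scg2. Their log2 fold changes were -0.16, -0.20 and -0.23, and none passed the FDR in the edgeR fit. Ugt1a8 belongs to a cluster with shared exons, so its counts are uncertain.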

How the data were processed

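Reads of polyadenylated RNA from 3 control and 3 PCBP1-OE samples had been trimmed with FASTX-Toolkit, aligned with TopHat2 to Rnor_6.0 and counted where uniquely mapped. The authors deposited these raw counts per gene without normalization. The sources used here do not name the counting tool, its strand setting or the annotation release. The submitters' processing notes name the human build GRCh38, while the gene IDs are those of rat. Every row has at least 1 count, so a gene without a row can be one that was never counted. The labels and the methods name different library kits. Nothing in the labels says whether cultures were separate, so p-values measure the spread between these libraries, which may be technical.

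Members were matched by symbol, and other lists by symbol or RefSeq ID. Members and lists were chosen with earlier results of these data known. The main test was edgeR 4.0.16 (R 4.3.3), quasi-likelihood, after TMM normalization and the filterByExpr filter (count of 10, total of 15) on all 6 libraries, Benjamini-Hochberg adjusted over all genes tested, with group as the only term. It was tested on simulated data. Members under the filter are given as counts, with exact Poisson intervals of their sums and exact conditional intervals of count ratios. Named genes were all members, Gapdh, the gene with the highest mean CPM of each list, pathway genes at an FDR of 0.05 and the 3 genes most correlated with the most abundant member tested; other list genes named were chosen after their values were seen. Results were recomputed without a filter or with 1 CPM in 3 libraries required, with upper-quartile or RLE scaling, in DESeq2 1.42.0, with a block for the replicate number, and leaving out single libraries. Promoter windows came from RefSeq (GRCr8), which the count table does not use. Sequences of the proteins were not used here. Some genes of the lists enter the counts and sums but are not reported here by name.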

Additional observations from a re-analysis of the deposited data

How the results depend on the processing

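The count of members at an FDR of 0.05 was 0 in the main comparison, 1 with no filter and 0 to 1 with each library left out. The log2 fold change of Scg2 was -0.19 with no filter and -0.25 to -0.11 with a library left out, and that of Th -0.10 to 0.047; Th turned sign without Ctrl replicate 2 (0.047) and without PCBP1-OE replicate 1 (0.039). Per count of Gapdh, which moves all genes up by the 0.16 that Gapdh fell by, Th was at 0.11, Slc18a1 at 0.62 and Scg2 at -0.032. Genes at that FDR numbered 1193 in the main comparison, 2090 with no filter and 48 (without Ctrl replicate 2) to 2860 (without Ctrl replicate 3) with a library left out. With a replicate block there were 16 genes, 0 pathway genes and 0 members. The replicate numbers did not pair the libraries: deviations of same-numbered libraries correlated at -0.104, -0.0814 and -0.107, and 0 of 6 libraries correlated best with their own number. Pathway genes called were 2, and 0 to 2 with a library left out. Slc18a1 kept its direction under all 12 settings, and on the Gapdh scale as well. It passed in none of the 12 settings, though DESeq2 gave it no adjusted p. With 1 library left out, the mean CPM over libraries moved by over 1.5 times for 4 members: Chga from 0.0404 to 0.0178 (without PCBP1-OE replicate 3), Chgb from 0.123 to 0.0657 (without PCBP1-OE replicate 1), Slc6a2 from 0.221 to 0.143 (without Ctrl replicate 1) and Pnmt from 0.0157 to 0.0089 (without PCBP1-OE replicate 2) or 0.0099 (without Ctrl replicate 3). The cause of these differences was not tested. With 1 count at about 0.05 CPM, changes in 7 members are not resolved at this depth.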
